A study of Mus musculus with 15 samples.

Results

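A set of 10 genes used to recognise the stem cells at the base of the small intestinal crypt was described gene by gene, namely Lgr5, Olfm4, Ascl2, Smoc2, Slc12a2, Cdca7, Prom1, Igfbp4, Rgmb and Mex3a. They were taken by name, and every probe that the array annotation pairs with them, by gene ID or symbol, was read. There were 9 such genes with a probe, among 16592 named genes on the arrays, and they carried 16 of the 25695 probes. Smoc2 was paired with no probe here and was not analysed here.

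Expression was measured in total RNA of epithelium scraped from the jejunum of 15 mice, with 1 bead array per mouse, and the values are on a log2 scale. Of these mice, 4 were controls negative for VillinCreERT2, which expresses a tamoxifen-activated Cre in the gut lining, and their other alleles are not given in the labels. The Brg1 deficient group (n = 4) was VillinCreERT2+ Brg1fl/fl, the Apc deficient group (n = 3) was VillinCreERT2+ Apcfl/fl Brg1+/+, and the Brg1-Apc deficient group (n = 4) was VillinCreERT2+ Apcfl/fl Brg1fl/fl. Every mouse, controls included, was given 80 mg/kg of tamoxifen on each of 4 days, and tissue was collected at day 4 after induction. The ages of the mice are not given in the sources used here. The comparisons address what loss of Brg1 does to the stem cell genes with normal Wnt signalling and with Wnt signalling raised by loss of Apc. Since controls lacked Cre, an effect of active Cre itself and of the deleted allele cannot be told apart in a comparison against control. In scrapes, fewer cells of a type and less RNA per cell cannot be told apart either, and crypt and villus cells are measured together.

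Stem cells at the crypt base divide throughout life and renew the gut lining. They depend on Wnt signals, which stabilise beta-catenin so that it drives target genes together with TCF factors, and on Notch signals from neighbouring Paneth cells. Apc is part of the complex that destroys beta-catenin. Brg1, the product of Smarca4, is an ATPase of SWI/SNF complexes, which move nucleosomes and open chromatin.

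Stretches around the transcription start, from 250 bases before it to 50 after it, were available from RefSeq on the mouse build GRCm38.p6 for 7 of the genes. Lgr5, Slc12a2 and Smoc2 were not matched. The 4 shown, each 5′ to 3′ on the gene's own strand, belong to 2 genes whose Brg1-Apc deficient mean lay close to the Brg1 deficient mean (Olfm4 and Ascl2) and to 2 for which it was higher past the test (Cdca7 and Igfbp4). Capitals mark TGGGAA, the core bound by the Notch effector RBPJ, on either strand. Cores bound by TCF and LEF factors (CTTTGAT or CTTTGTT or CTTTGAA) were searched on both strands too. The stretches lie at chr14:80000052-80000351 on the plus strand (Olfm4), chr7:142969215-142969514 on the minus strand (Ascl2), chr2:72475969-72476268 on the plus strand (Cdca7) and chr11:99040994-99041293 on the plus strand (Igfbp4). The whole Igfbp4 stretch lies inside the span given for the gene, which begins at chr11:99040005, so its start is not the outermost one.
Olfm4: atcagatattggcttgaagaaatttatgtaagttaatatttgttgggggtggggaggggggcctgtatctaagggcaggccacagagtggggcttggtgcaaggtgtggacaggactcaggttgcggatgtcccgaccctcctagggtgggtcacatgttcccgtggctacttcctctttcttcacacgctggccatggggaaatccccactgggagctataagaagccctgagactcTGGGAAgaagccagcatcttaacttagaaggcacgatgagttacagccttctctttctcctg
Ascl2: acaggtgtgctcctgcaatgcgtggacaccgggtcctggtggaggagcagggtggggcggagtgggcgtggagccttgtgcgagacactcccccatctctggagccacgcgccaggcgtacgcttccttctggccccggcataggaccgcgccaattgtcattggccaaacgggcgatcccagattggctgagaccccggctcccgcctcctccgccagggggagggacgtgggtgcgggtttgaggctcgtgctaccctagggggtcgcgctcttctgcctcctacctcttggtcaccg
Cdca7: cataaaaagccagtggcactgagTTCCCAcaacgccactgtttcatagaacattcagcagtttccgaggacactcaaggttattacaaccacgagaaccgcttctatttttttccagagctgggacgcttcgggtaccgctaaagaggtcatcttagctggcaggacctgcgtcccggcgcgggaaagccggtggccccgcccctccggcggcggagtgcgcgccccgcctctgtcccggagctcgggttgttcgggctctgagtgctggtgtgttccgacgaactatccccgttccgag
Igfbp4: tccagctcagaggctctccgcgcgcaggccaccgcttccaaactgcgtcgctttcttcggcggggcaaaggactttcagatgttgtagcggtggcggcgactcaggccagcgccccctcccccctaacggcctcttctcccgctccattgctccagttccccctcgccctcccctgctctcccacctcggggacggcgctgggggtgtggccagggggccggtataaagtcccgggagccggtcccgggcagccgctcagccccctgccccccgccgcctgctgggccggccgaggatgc

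Among these 4 stretches, TGGGAA was found at 1 place in Olfm4, with its leftmost base at -12 from the start, and at 1 place in Cdca7 on the opposite strand at -227. It is present in 25.6% of the 32851 promoters of the same length. The 3 TCF and LEF cores were in none of the stretches of the 7 genes, and they are in 3.73%, 5.85% and 5.14% of all promoters, in the order given above. The core letters are not in these windows, which says nothing about binding elsewhere. Guanine and cytosine made up 52.3% of the Olfm4 stretch, which held 5 CpG dinucleotides, against a median of 52.7% and 7 CpG over all promoters. The other 3 shown were richer, with 67.0% and 23 CpG for Ascl2, 59.3% and 26 for Cdca7, and 71.3% and 27 for Igfbp4.

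Smarca4 followed the labels, with means of 6.20 and 6.08 in the Brg1 deficient and Brg1-Apc deficient groups, against 7.55 in control and 8.15 in the Apc deficient group. The level of 6 measured epithelial genes (such as Vil1 and Krt8, the list being averaged per array) was between 11.02 and 12 on all 15 arrays, against 4.87 to 5.85 for endothelial genes. Fibroblast genes averaged 5.41 to 6.72 and intraepithelial lymphocyte genes 6.38 to 8.37, with the 3 Apc deficient arrays the lowest. Some arrays stood apart. Smooth muscle genes averaged 9.58 on control 1 and 5.0 to 7.87 elsewhere, and pancreatic acinar genes averaged 10.22 on control 4 and at most 5.31 elsewhere. The values of Brg1 deficient 4 were compressed, with an interquartile range of 1.23 where other arrays had 1.89 to 2.56. Where leaving out these arrays ended a call for a gene of the set, the value without them is given. No such call ended when Brg1 deficient 4 alone was left out. Slide 1 held replicates 1 and 2 of every group, and slide 2 held the rest, with 1 Apc deficient array. A slide position was used for 1 genotype, so these cannot be told apart.

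Background was read from 1323 probes of 1211 olfactory, vomeronasal and trace amine receptor genes, which gut epithelium is not known to use. A probe was taken as above background on an array where it exceeded the 95th percentile of these probes there, which lay between 5.65 and 6.19. By this measure Slc12a2 and Cdca7 were above background on all 15 arrays, Igfbp4 on 14, Olfm4 on 13, Lgr5 on 11, Mex3a on 10, Ascl2 on 9, Rgmb on 7 and Prom1 on 4. A gene with several probes is represented by its brightest probe, judged by the mean of all 15 arrays. Where a group sits at background, the size of its difference from another group is uncertain and may be understated.

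**Figure D1:**
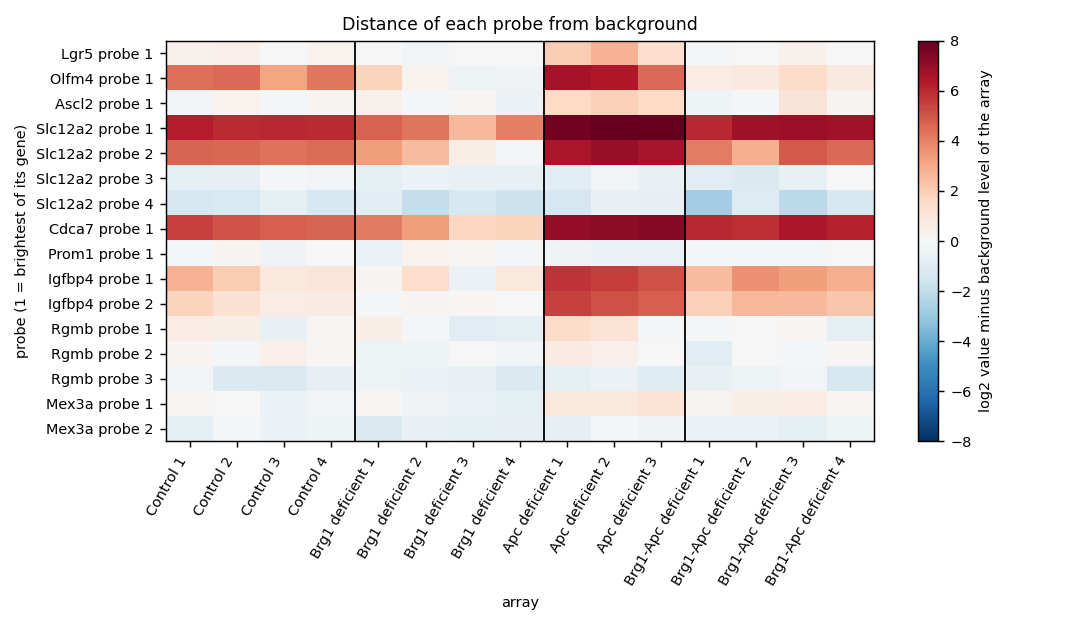
Heat map of the log2 value of each of the 16 probes less the 95th percentile of the receptor probes on the same array, with the 15 arrays in columns by group and probe 1 the brightest of its gene; red is above and blue below that level. Lgr5, Ascl2, Prom1, Rgmb and Mex3a are pale in the control and Brg1 deficient columns, and the first probes of Slc12a2 and Cdca7 are red in every column.

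In Apc deficient mice 7 of the 9 measured genes were higher than in control (Lgr5, Olfm4, Ascl2, Slc12a2, Cdca7, Igfbp4 and Mex3a), by limma at an adjusted p under 0.05. Of all 16592 genes, 8.14% were higher by the same test, and of the 9808 genes above background on at least 3 arrays, 13.5% were. The 9 genes' median difference was 1.74, against -0.03 over all genes. In Brg1 deficient mice 3 of 9 fell (Olfm4, Slc12a2 and Cdca7), against 2.50% of all genes and 4.21% of those above background, with medians of -0.32 and, over all genes, 0.03. In the Brg1-Apc deficient mice only part of the set passed the test in each comparison. Against Apc deficient mice 4 of 9 were lower (Lgr5, Olfm4, Ascl2 and Igfbp4), where 3.89% of all genes and 6.46% of those above background were, while 0 of 9 were higher. The median was -1.24, against 0.05 over all genes. Of the 5 that did not pass, Slc12a2 (-1.24, limma adjusted p = 0.0513), Rgmb (-0.89), Cdca7 (-0.87) and Mex3a (-0.43) also lay below 0. Prom1 lay above it (0.48), and no test compared the genes with each other. Against Brg1 deficient mice 3 of 9 were higher (Slc12a2, Cdca7 and Igfbp4), where 5.53% and 9.33% of the genes were, with medians of 0.48 and -0.03. Against control, 1 was higher (Igfbp4, with 3.65% and 6.11% higher among the genes) and 1 was lower (Olfm4, with 3.39% and 5.68% lower).

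**Figure D2:**
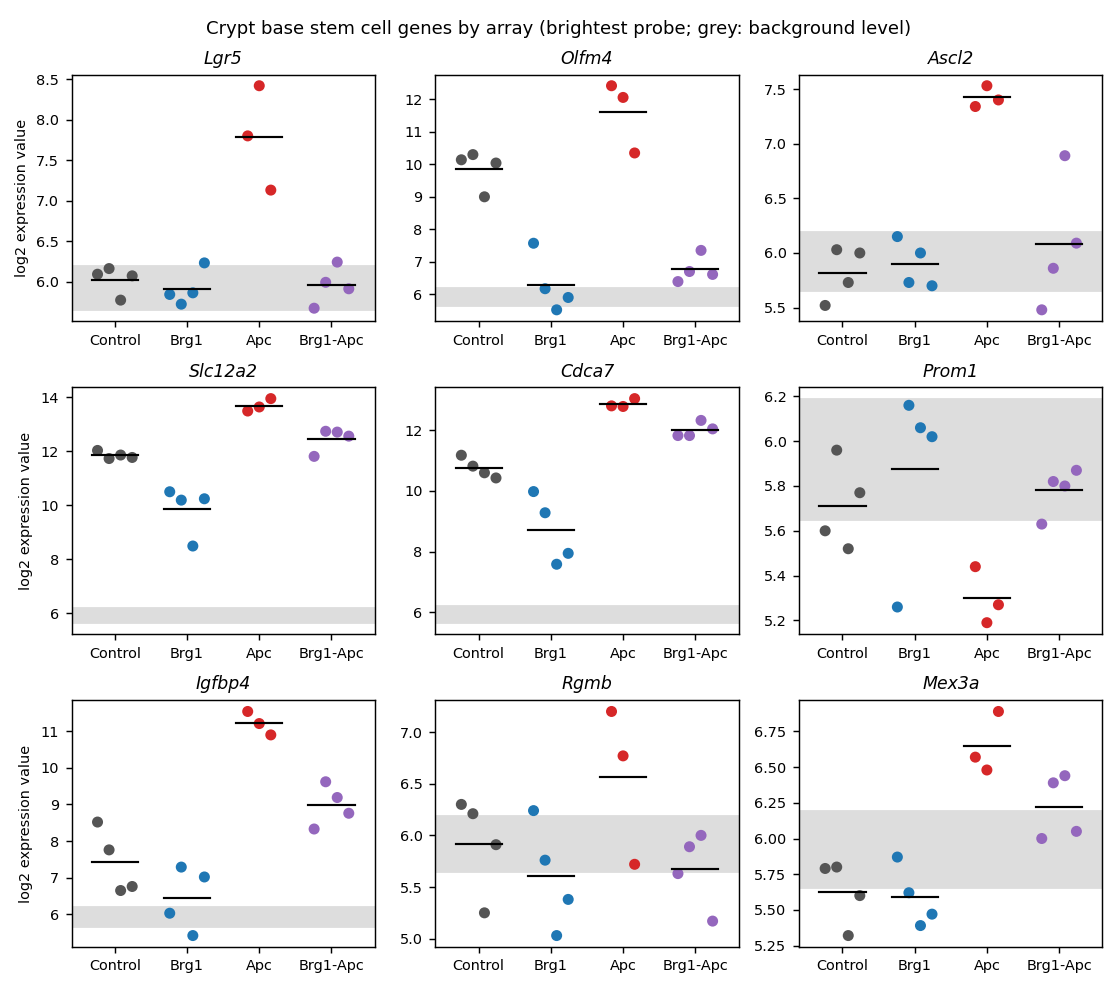
Log2 expression of the brightest probe of each of the 9 measured genes by group (Brg1, Apc and Brg1-Apc are the deficient groups), with 1 point per mouse, a bar at the group mean and a grey band over the range of the array background levels, 5.65 to 6.19. The Apc deficient arrays are the highest for Lgr5, Olfm4, Ascl2, Slc12a2, Cdca7, Igfbp4 and Mex3a, and the Brg1-Apc deficient arrays of Lgr5 and Ascl2 mix with those of control.

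Lgr5 encodes a receptor for R-spondins, secreted proteins that strengthen Wnt signals, and is the standard mark of the cycling crypt base stem cell. Its level was 6.09, 6.16, 5.77 and 6.07 in the controls and 5.84, 5.72, 5.86 and 6.23 in Brg1 deficient mice. It was 7.80, 8.42 and 7.13 in Apc deficient mice and 5.67, 5.99, 6.24 and 5.91 in Brg1-Apc deficient mice. All 3 Apc deficient arrays lay above every other array, and the other 3 groups overlapped each other. Apc deficient mice had 1.76 more Lgr5 than control (SE 0.26, 3.40-fold, limma adjusted p = 0.000195). It was lower by 1.83 (difference -1.83, SE 0.26, 3.55-fold) in Brg1-Apc deficient than in Apc deficient mice (adjusted p = 0.000362). Brg1 deficient mice differed from control by -0.11 (95% interval -0.61 to 0.39, adjusted p = 0.874) and Brg1-Apc deficient mice by -0.07 (-0.56 to 0.43, adjusted p = 0.94). Control arrays averaged only 0.24 above the receptor percentile, so a fall from the control level had little room to show on this probe. Brg1-Apc deficient and Brg1 deficient mice averaged 0.08 and -0.04 from it, and Apc deficient mice 2.05.

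Ascl2 encodes a transcription factor that is switched on by Wnt signals and keeps crypt base cells in the stem cell state. The controls measured 5.52, 6.03, 5.73 and 6.0 and the Brg1 deficient mice 6.15, 5.73, 6.0 and 5.70. The Apc deficient mice measured 7.34, 7.53 and 7.40 and the Brg1-Apc deficient mice 5.48, 5.86, 6.89 and 6.09. The Apc deficient arrays were again above all others, and Brg1-Apc deficient 3, at 6.89, was the nearest to them. Ascl2 rose by 1.60 in Apc deficient against control mice (SE 0.27, 3.04-fold, limma adjusted p = 0.000564), and was 2.54-fold lower in Brg1-Apc deficient than in Apc deficient mice (difference -1.34, SE 0.27, adjusted p = 0.00519). The difference of Brg1-Apc deficient mice from control was 0.26 (95% interval -0.26 to 0.78, adjusted p = 0.676), and that of Brg1 deficient mice was 0.08 (-0.44 to 0.60, adjusted p = 0.921). As with Lgr5, the control level was at background, with a mean of 0.04 above the receptor percentile.

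Olfm4 encodes a secreted glycoprotein that fills crypt base stem cells and responds to Notch signals. It measured 10.14, 10.30, 9.0 and 10.04 in the controls and 7.57, 6.17, 5.52 and 5.90 in Brg1 deficient mice. It measured 12.42, 12.06 and 10.35 in Apc deficient mice and 6.39, 6.70, 7.35 and 6.61 in Brg1-Apc deficient mice. The controls stood far above background here. Both groups that lost Brg1 lay below every control array, whether Apc was intact or not, and they overlapped each other. They were near background, averaging 0.34 above it in Brg1 deficient mice (2 of 4 arrays above) and 0.89 in Brg1-Apc deficient mice. The sizes of the falls may thus be understated, and a difference between these 2 groups may be compressed. In Brg1 deficient against control mice Olfm4 fell by 3.58 on the log2 scale (SE 0.46, 12-fold, limma adjusted p = 0.000338), from a mean of 9.87 ± 0.59 to 6.29 ± 0.89 (SD, n = 4 each). In Brg1-Apc deficient mice it was 8.61-fold below control (difference -3.11, SE 0.46, adjusted p = 0.000662) and 28.8-fold below Apc deficient mice (difference -4.85, SE 0.49, adjusted p = 2.84e-05). The 2 groups without Brg1 lay 0.48 apart (95% interval -0.49 to 1.44, adjusted p = 0.699). Brg1 deficient 1 was above all the Brg1-Apc deficient arrays, and the other Brg1 deficient arrays were below them. The difference of Brg1-Apc deficient from Brg1 deficient mice was -0.32 on slide 1 and 1.27 on slide 2. The rise in Apc deficient mice over control, 1.74 (SE 0.49, 3.34-fold, adjusted p = 0.0248), was less firm. It no longer passed without Apc deficient 1 (adjusted p = 0.15), Apc deficient 2 (0.133) or control 3 (0.0845), or without both control arrays that held other tissue (0.0747).

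Slc12a2 encodes a sodium, potassium and chloride cotransporter of the basal membrane, abundant in crypts. Its brightest probe gave 12.03, 11.73, 11.86 and 11.77 in the controls and 10.50, 10.19, 8.49 and 10.24 in Brg1 deficient mice. It gave 13.49, 13.64 and 13.95 in Apc deficient mice and 11.81, 12.74, 12.71 and 12.56 in Brg1-Apc deficient mice. The Brg1 deficient arrays were the lowest and the Apc deficient arrays the highest, with no overlap with another group. The Brg1-Apc deficient arrays overlapped control. Slc12a2 fell by 1.99 in Brg1 deficient against control mice (SE 0.34, 3.98-fold, limma adjusted p = 0.00343) and rose by 1.85 in Apc deficient mice (SE 0.37, 3.6-fold, adjusted p = 0.00239). It was 6.08-fold higher in Brg1-Apc deficient than in Brg1 deficient mice (difference 2.60, SE 0.34, adjusted p = 0.000276). The difference of Brg1-Apc deficient from Apc deficient mice was -1.24 (95% interval -2.01 to -0.46, adjusted p = 0.0513) on this probe. A dimmer probe called that comparison, with -2.46 (SE 0.59, adjusted p = 0.0164), and had a lower Brg1 deficient mean, 7.50 ± 1.53. Its values there were 9.15, 8.42, 6.36 and 6.06. Between Brg1-Apc deficient and Brg1 deficient mice this dimmer probe differed by 2.47 (SE 0.54, limma adjusted p = 0.0106), and the groups overlapped. That difference was 0.57 on slide 1 and 4.38 on slide 2. A further 2 probes of Slc12a2 were above background on 0 arrays and passed in no comparison. Without both control arrays that held other tissue, the fall in Brg1 deficient mice was 1.94 in size (difference -1.94, adjusted p = 0.0772).

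Cdca7 encodes a nuclear protein that responds to Myc and acts with the chromatin remodeller Hells. It measured 11.18, 10.82, 10.60 and 10.43 in the controls and 9.98, 9.28, 7.58 and 7.94 in Brg1 deficient mice. It measured 12.81, 12.79 and 13.05 in Apc deficient mice and 11.83, 11.83, 12.33 and 12.05 in Brg1-Apc deficient mice. No 2 groups overlapped, and their order was Brg1 deficient, control, Brg1-Apc deficient and Apc deficient, from low to high. The fall in Brg1 deficient mice was 4.18-fold (difference -2.06, SE 0.38, limma adjusted p = 0.00632) and the rise in Apc deficient mice was 4.36-fold (2.12, SE 0.42, adjusted p = 0.00206). Brg1-Apc deficient mice were 9.96-fold above Brg1 deficient mice (3.32, SE 0.38, adjusted p = 0.000107). They differed from Apc deficient mice by -0.87 (95% interval -1.75 to 0.00, adjusted p = 0.248) and from control by 1.25 (0.44 to 2.06, adjusted p = 0.0649), and neither passed. With slide as a block the difference from control passed (1.25, SE 0.36, adjusted p = 0.044). The fall in Brg1 deficient mice had an adjusted p of 0.103 without the 2 control arrays that held other tissue (difference -2.02), and of 0.0588 where only the groups compared were fitted.

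Igfbp4 encodes a secreted protein that binds insulin-like growth factors, and it can also dampen Wnt receptors. Its brighter probe gave 8.52, 7.76, 6.65 and 6.76 in the controls and 6.03, 7.29, 5.42 and 7.02 in Brg1 deficient mice. It gave 11.54, 11.21 and 10.90 in Apc deficient mice and 8.33, 9.62, 9.19 and 8.76 in Brg1-Apc deficient mice. The Apc deficient arrays were above all others. The Brg1-Apc deficient arrays were above the Brg1 deficient ones, and the lowest of them was below the highest control. Smooth muscle genes averaged 9.58, 7.70, 5.58 and 7.29 on the control arrays and 5.83, 7.87, 5.50 and 7.16 on the Brg1 deficient arrays. The Brg1-Apc deficient arrays had 5.0, 6.90, 5.60 and 5.48. In each of these groups the arrays with the most and the least Igfbp4 had the most and the least muscle signal. The Apc deficient arrays (5.97, 6.58 and 6.47) did not run this way. The part of muscle in the Igfbp4 values was not tested. Igfbp4 had the largest rise of the 9 genes in Apc deficient over control mice, 3.8 (SE 0.47, 13.9-fold, limma adjusted p = 6.11e-05), and the second probe gave 4.02 (SE 0.29, adjusted p = 4.32e-07). It was 4.74-fold lower in Brg1-Apc deficient than in Apc deficient mice (difference -2.24, SE 0.47, adjusted p = 0.00758) and 5.79-fold higher than in Brg1 deficient mice (2.53, SE 0.44, adjusted p = 0.00192). Against control the Brg1-Apc deficient mice were 1.56 higher (SE 0.44, adjusted p = 0.0422), and 1.39 on the second probe (SE 0.27, adjusted p = 0.00459). On the brighter probe this call ended in 9 of the 15 fits that left out 1 array. The adjusted p was 0.0523 to 0.0555 without an Apc deficient array and 0.0649, 0.136 and 0.14 without control 2, 3 or 4. It was 0.137, 0.11 and 0.0661 without Brg1-Apc deficient 2, 3 or 4, and 0.0789 without Brg1-Apc deficient 2 and Brg1 deficient 4 together. Without both control arrays that held other tissue the difference was 1.77 (adjusted p = 0.0932). In Brg1 deficient mice the difference from control was -0.98 (95% interval -1.90 to -0.06, adjusted p = 0.284), or -0.83 on the second probe (adjusted p = 0.114).

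Mex3a encodes an RNA-binding protein found in a slowly cycling fraction of Lgr5 positive cells. Its brighter probe gave 5.79, 5.80, 5.32 and 5.60 in the controls and 5.87, 5.62, 5.39 and 5.47 in Brg1 deficient mice, all near background. It gave 6.57, 6.48 and 6.89 in Apc deficient mice and 6.0, 6.39, 6.44 and 6.05 in Brg1-Apc deficient mice. The Apc deficient arrays were the highest, the Brg1-Apc deficient arrays came next, and the other 2 groups overlapped below them. Mex3a rose by 1.02 in Apc deficient over control mice (SE 0.20, 2.03-fold, limma adjusted p = 0.00232). The Brg1-Apc deficient mice differed by 0.59 from control (95% interval 0.20 to 0.99, adjusted p = 0.074) and by -0.43 from Apc deficient mice (-0.85 to 0.00, adjusted p = 0.246). Its other probe was above background on 0 arrays.

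Prom1, which encodes the membrane protein CD133 and marks a wider stretch of the crypt, was above background on 4 arrays, and its values ran from 5.19 to 6.16. The lowest mean was that of the Apc deficient group, at 5.44, 5.19 and 5.27. No comparison of Prom1 passed with all arrays, the smallest adjusted p being 0.0755 for Apc deficient against Brg1 deficient mice (difference -0.58, SE 0.22). When 1 array was left out, that comparison could pass for all 9 measured genes, with Prom1 lower in Apc deficient mice. Rgmb encodes a co-receptor for bone morphogenetic proteins. Its brightest probe gave 6.30, 6.21, 5.25 and 5.91 in the controls and 6.24, 5.76, 5.03 and 5.38 in Brg1 deficient mice. It gave 7.20, 6.77 and 5.72 where Apc was lost and 5.63, 5.89, 6.0 and 5.17 where both were. Its 3 probes were above background on 7, 7 and 0 arrays, all the groups overlapped, and none of its comparisons passed (smallest adjusted p of the brightest probe = 0.074). Apc deficient against Brg1 deficient mice passed with slide as a block (0.85, SE 0.27, limma adjusted p = 0.038) and with the replicate number as a block (0.88, adjusted p = 0.0471). On slide 1 alone, Rgmb was lower in Brg1-Apc deficient than in Apc deficient mice (difference -1.22, adjusted p = 0.0299).

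**Figure D3:**
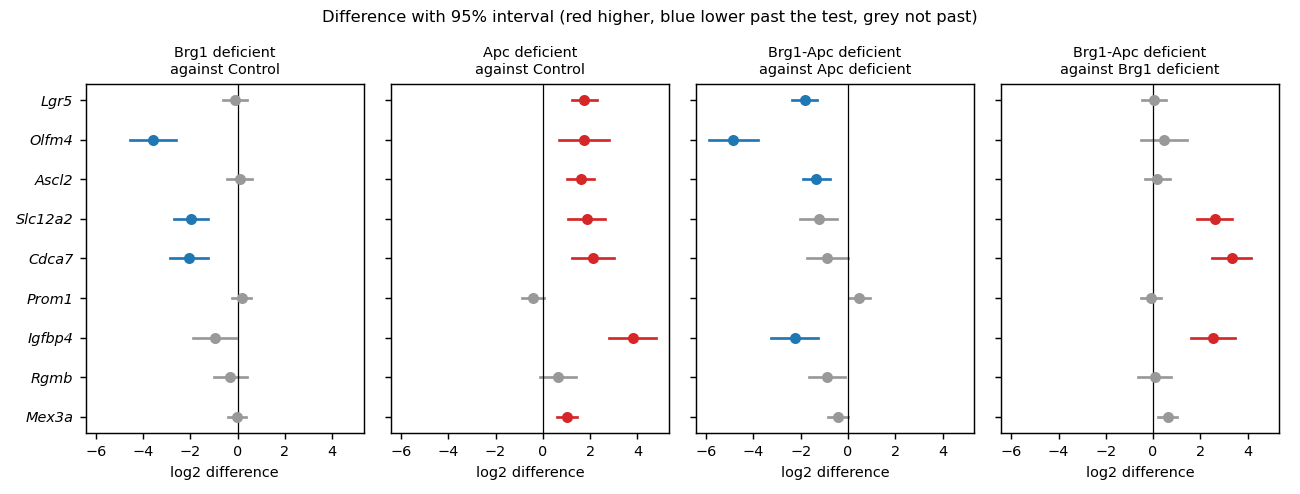
Log2 differences between groups in 4 comparisons for the brightest probe of the 9 measured genes, with 95% intervals from limma; red and blue points are higher and lower past the test at an adjusted p of 0.05 over all probes, and grey points did not pass. Olfm4, Igfbp4, Lgr5 and Ascl2 passed below 0 between Brg1-Apc deficient and Apc deficient mice, and Olfm4, Cdca7 and Slc12a2 did between Brg1 deficient and control mice.

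Apc deficient against Brg1 deficient mice gave the widest contrast, with the same 7 of 9 genes higher, against 12.9% of all genes and 21.5% of those above background. The median was 1.88, against -0.10 over all genes. The differences ran from 1.06 for Mex3a (SE 0.20, limma adjusted p = 0.00107) to 5.32 for Olfm4 (SE 0.49, 40.0-fold, adjusted p = 1.53e-06). With the replicate number as a block 8 of the 9 passed, Rgmb being the addition. Igfbp4 differed by 4.78, Cdca7 by 4.19, Slc12a2 by 3.84, Lgr5 by 1.88 and Ascl2 by 1.53. These comparisons share arrays with those above and are no separate evidence.

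Whether loss of Brg1 acted differently with and without Apc was tested as an interaction. Of the 9 genes 1 passed, Lgr5, against 0.271% of all genes and 0.438% of those above background in that direction, and the median was -0.57 against 0.02. For Lgr5 the change with loss of Brg1 was 1.72 lower without Apc than with it (interaction -1.72, SE 0.35, limma adjusted p = 0.03). Because the control level was at background, the change with Apc present is bounded by it. The call was lost in 11 of 26 alternative fits, with differences from -2.05 to -1.17 and adjusted p from 0.0156 to 0.73. Leaving out control 1, 3 or 4 was enough (0.0602, 0.0679 and 0.061), as was leaving out Brg1 deficient 1 (0.0506), Apc deficient 1 or 2 (0.0513 and 0.0958) or Brg1-Apc deficient 1 or 4 (0.0647 and 0.0759). Without both control arrays that held other tissue the adjusted p was 0.142, and the slides alone gave -1.93 (0.0731) and -1.17 (0.73). Ascl2 gave -1.42 (SE 0.36, adjusted p = 0.0775) and Olfm4 gave -1.27 (SE 0.67, adjusted p = 0.538). For Olfm4, slide 1 alone gave -2.34 and slide 2 alone gave 0.44, so its sign was not the same on both. Background bounds these values too, since the Ascl2 control level and the Olfm4 means of both groups without Brg1 were near it. The values of Slc12a2 and Cdca7 were above 0, at 0.76 (adjusted p = 0.672) and 1.19 (adjusted p = 0.463), and did not pass. On slides 1 and 2 alone Cdca7 gave 0.40 and 1.90. The second Slc12a2 probe gave 0.32 over all arrays, with -1.53 on slide 1 and 2.18 on slide 2, so its direction was not stable. The second probe of Igfbp4 passed, at -1.80 (SE 0.39, adjusted p = 0.0421), and the brighter one did not (-1.27, adjusted p = 0.51). The second probe averaged 0.05 above background in Brg1 deficient mice, which bounds its change with Apc present too, and it did not pass on slide 1 (-1.49, adjusted p = 0.231) or slide 2 (-1.96, adjusted p = 0.521) alone.

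Within slides the directions were the same for every called difference of the brightest probes. With Apc intact, Olfm4 differed between Brg1 deficient and control mice by -3.35 on slide 1 (limma adjusted p = 0.00224) and -3.81 on slide 2 (0.0339). Cdca7 differed by -1.37 (0.0816) and -2.76 (0.0271), and Slc12a2 by -1.54 (0.0715) and -2.45 (0.102). The fall of both was thus larger on slide 2, and neither Slc12a2 value passed with 2 arrays a group. Between Brg1-Apc deficient and Apc deficient mice, slide 1 gave -2.28 for Lgr5 (0.00182), -5.70 for Olfm4 (5.73e-05), -1.77 for Ascl2 (0.00622) and -2.40 for Igfbp4 (0.0117). Slide 2, with 1 Apc deficient array that is assumed to vary like the other groups, gave -1.05, -3.37, -0.91 and -1.93, with adjusted p of 0.505, 0.135, 0.698 and 0.468. Between Apc deficient and control mice, slide 1 gave 1.99 for Lgr5, 2.02 for Olfm4, 1.66 for Ascl2, 1.69 for Slc12a2, 1.80 for Cdca7, 3.24 for Igfbp4 and 0.73 for Mex3a, of which all but Mex3a passed (adjusted p = 0.155). Slide 2 gave 1.21, 0.83, 1.54, 2.14, 2.53, 4.20 and 1.43 in the same order, of which Cdca7 (0.0423) and Igfbp4 (0.0446) passed. Between Brg1-Apc deficient and Brg1 deficient mice, slides 1 and 2 gave 1.94 and 3.27 for Slc12a2, 2.20 and 4.43 for Cdca7 and 2.31 and 2.75 for Igfbp4, all past the test except Igfbp4 on slide 2 (adjusted p = 0.051). Between Brg1-Apc deficient and control mice, Igfbp4 gave 0.84 (0.448) and 2.27 (0.182) and Olfm4 -3.67 (0.000802) and -2.54 (0.108). Between Apc deficient and Brg1 deficient mice the 7 genes ran from 0.78 (Mex3a) to 5.37 (Olfm4) on slide 1 and from 1.09 (Lgr5) to 5.29 (Cdca7) on slide 2.

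Genes of other states and cell types were read beside the set. The mean of 7 measured proliferation genes (Mcm2, Mcm6, Pcna, Top2a, Birc5, Cdk1 and Ccnb2) was 8.17, 8.42, 7.64 and 8.06 on the control arrays and 8.08, 7.16, 6.28 and 6.10 on the Brg1 deficient arrays. It was 9.32, 9.46 and 9.13 in Apc deficient mice and 8.45, 7.81, 8.41 and 8.22 in Brg1-Apc deficient mice. The Brg1 deficient arrays ranged widely. Brg1 deficient 1 was within the control range, and arrays 3 and 4, which had the lowest Cdca7, were the lowest. In Brg1 deficient against control mice 4 of the 7 fell, such as Mcm2, a subunit of the replicative helicase (difference -1.11, limma adjusted p = 0.014), and 0 rose, where 2.50% of all genes and 4.21% of those above background fell. In Apc deficient mice 4 rose, against 8.14% and 13.5% of the genes, and 0 fell. Where Apc was lost, 1 of the 7 fell with loss of Brg1 (3.89% and 6.46% of the genes did). A further comparison, of Brg1-Apc deficient with Brg1 deficient arrays, had 3 higher, against 5.53% and 9.33%. Olfm4 was low on Brg1 deficient 1 too, at 7.57 against 9.0 or more in control. The mean of 4 measured Paneth cell genes was 9.85 over the controls and 8.93 over the Brg1 deficient arrays, 11.13 with loss of Apc (range 10.86 to 11.32) and 10.08 with loss of both. Of these 4, 2 rose in Apc deficient over control mice and 1 was higher with loss of both than with loss of Brg1. None of the 4 passed in Brg1 deficient against control mice, whose arrays overlapped, or between the 2 groups that lost Apc. Intraepithelial lymphocyte genes averaged 6.75, 6.38 and 6.55 on the Apc deficient arrays, below the 7.22 to 8.37 of all others. Of the 7 in that list, 4 were lower with loss of Apc than in control (median -2.08), where 7.09% of all genes and 11.8% of those above background were. The loss of both genes against loss of Apc had 3 of the 7 higher, against 3.92% and 6.48% of the genes. Enterocyte genes averaged 10.52 to 11.53 with loss of Apc, below control (12.52 to 12.73) and Brg1 deficient arrays (11.97 to 12.54). The Brg1-Apc deficient arrays (11.46 to 12.32) overlapped these ranges except that of control. The part of these shifts in the stem cell gene values was not tested.

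**Figure D4:**
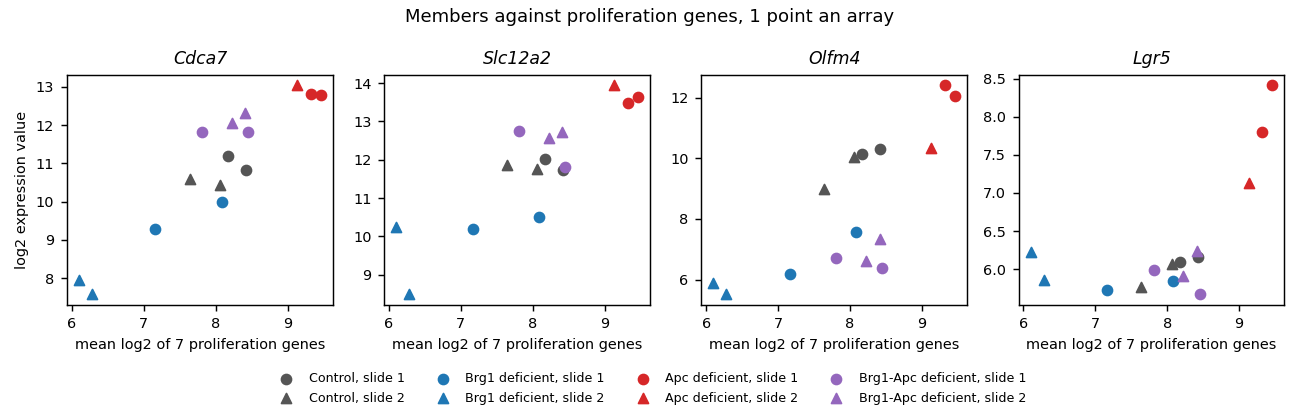
Log2 expression of Cdca7, Slc12a2, Olfm4 and Lgr5 against the mean log2 expression of 7 proliferation genes on the same array, with 1 point per mouse, coloured by group and shaped by slide. The Brg1 deficient arrays spread from 6.10 to 8.08 on the horizontal axis, and the Olfm4 values of both groups without Brg1 lie below those of control.

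Further genes of the crypt base or of Wnt targets gave a second view. There were 22 with a probe, of 24 listed, and none is among the 10. In Apc deficient against control mice 12 of the 22 rose and 0 fell, with a median difference of 0.84, where 8.14% of all genes and 13.5% of those above background rose. Tnfrsf19, also called Troy, rose by 2.54 (SE 0.26, limma adjusted p = 8.53e-06), the Wnt-driven transcription factor Sp5 by 2.31 (SE 0.26, adjusted p = 2.26e-05) and the adhesion molecule Cd44 by 2.33 (SE 0.26, adjusted p = 2.53e-05). In Brg1 deficient mice 2 fell, Sp5 (difference -1.62, SE 0.24, adjusted p = 0.00105) and Cd44 (-0.97, SE 0.24, adjusted p = 0.0378), and the median was -0.18. Of all genes 2.50% fell there, and of those above background 4.21%. Where Apc was lost, 5 of 22 fell with loss of Brg1 and 0 rose, with a median of -0.29, where 3.89% and 6.46% of the genes fell. The growth regulator Myc fell from a mean of 7.13 to 5.20 (difference -1.93, SE 0.31, adjusted p = 0.00115), the transcription factor Sox9 from 7.71 to 6.22 (-1.50, SE 0.30, adjusted p = 0.00613) and Cd44 from 9.91 to 8.63 (-1.28, SE 0.26, adjusted p = 0.00663). Sp5, by contrast, averaged 9.57 in Brg1-Apc deficient and 9.97 in Apc deficient mice (difference -0.40, SE 0.26, adjusted p = 0.432). Myc was the 1 gene of the list past the interaction test (-1.97, SE 0.42, adjusted p = 0.0388), where 0.271% and 0.438% of the genes passed in that direction. It was above background only on the 3 Apc deficient arrays, so background bounds its change with loss of Brg1 where Apc was present. Of the 22, 5 rose in Brg1-Apc deficient over control mice (3.65% and 6.11% of the genes did) and 7 over Brg1 deficient mice (5.53% and 9.33%), and 0 fell in either. The 3 genes tied to reserve stem cells (Bmi1, Hopx and Tert) passed in none of the 7 comparisons. They were above background on 10, 0 and 1 arrays, so Hopx and Tert could hardly have shown a change. Of 8 measured R-spondins, Lgr5 relatives and Wnt receptors, Fzd7, a Frizzled receptor of crypt base cells, was the 1 that passed in any. It averaged 6.83 in Brg1-Apc deficient and 8.36 in Apc deficient mice (difference -1.52, SE 0.31, adjusted p = 0.00639). Rspo1, Rspo2, Rspo3 and Rspo4 were above background on 1, 5, 3 and 2 arrays and Lgr6 on 0, which limits what they could show.

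For the 7 genes that differed between Apc deficient and Brg1 deficient mice, the place of the Brg1-Apc deficient mean between these means was computed on the log2 scale, with 0% at Brg1 deficient and 100% at Apc deficient. It is a description without a test, and background compresses it for dim genes. Lgr5 lay at 2.47%, Olfm4 at 8.93% and Ascl2 at 11.9%. Igfbp4 was at 53.0%, Mex3a at 59.5%, Slc12a2 at 67.8% and Cdca7 at 79.2%. Only the brightest probes were placed. On the second Slc12a2 probe, Brg1-Apc deficient mice lay 2.47 above Brg1 deficient mice, and Apc deficient mice 4.93 above them. These values were 0.57 and 3.66 on slide 1, and 4.38 and 6.20 on slide 2. On the second Igfbp4 probe they were 2.22 and 4.85. The places thus depend on the probe and, for Slc12a2, on the slide. For Lgr5 and Ascl2 the means of both groups without Brg1 were at background, which bounds these places near 0%. Olfm4 averaged 0.34 above background in Brg1 deficient and 0.89 in Brg1-Apc deficient mice, so its place is limited by background too. The Brg1 deficient mean of Mex3a was -0.36 from background. Over the 10 further crypt base genes that passed the same comparison, the median was 58.4%, from -20.5% for Myc to 89.9% for Sp5. Among these, Myc, Sox9, Tnfrsf19 and Slc14a1 were above background on 0 Brg1 deficient arrays.

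**Figure D5:**
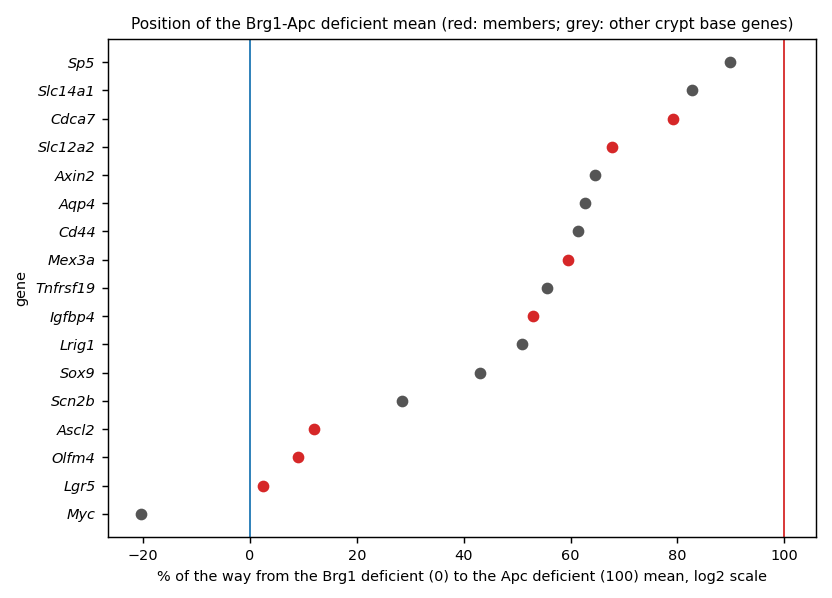
Place of the Brg1-Apc deficient mean between the Brg1 deficient mean (0%, blue line) and the Apc deficient mean (100%, red line) on the log2 scale, for the 7 stem cell genes (red points) and the 10 further crypt base genes (grey points) that passed the test between these groups. Lgr5, Olfm4 and Ascl2 lie between 2.47% and 11.9%, and Myc lies below 0%.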

How the data were processed

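Total RNA of scraped jejunal epithelium was amplified, labelled in 1 colour and hybridised to bead arrays, 1 per mouse, per the labels' protocols. The deposited values are log2 expression values of 25695 probes on 15 arrays, with 0 missing. How the authors normalized them is not given in the labels, headers or notes used here, and the values were used as deposited. The number of arrays limits the precision. Of the probes 23976 had 1 gene symbol and 1719 were unnamed here. For 23960 of them the symbol was taken from RefSeq by the gene ID of the array's annotation, and the rest kept the annotation's symbol.

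A model with the 4 group means was fitted in limma 3.58.1 (R 4.3.3; lmFit, contrasts.fit and eBayes) over the 15 arrays, which left 11 residual degrees of freedom. The 6 pairwise differences and the interaction were tested, two-sided, with Benjamini-Hochberg adjustment over all probes at 0.05. Intervals are 95% limma intervals and are not adjusted. All member genes were named. Of the list of other crypt base genes, the 3 with the smallest p past the test were named in each direction of 3 comparisons (each single loss against control, and the double loss against Apc loss). The 5 genes most like Lgr5 and Olfm4, and genes of the marker lists where their list is described, were named too. Sp5 in Brg1-Apc deficient mice, Myc in the interaction and Fzd7 were singled out after their values were seen. The members and lists were chosen with earlier results of these data known.

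Replicates are separate mice of a cohort, as the design text describes. Over 21 pairs of same-numbered arrays, the correlation of deviations from group means ran from -0.27 to 0.359, and 10 were over 0.1. All 3 pairs of Apc deficient and Brg1 deficient arrays were (0.139, 0.175 and 0.144), so that comparison is also given with the number as a block. Between other groups at least 1 pair was not. The fit was tested on simulated data with 200 changed probes in 5 simulations. Alternatives covered slide, replicate number, scaling, background filters, the prior, array weights, probe choice and leaving out arrays. Leaving out control 1 and 4 together, or Brg1 deficient 4 and Brg1-Apc deficient 2 together, was chosen after seeing the data. Figures were drawn with matplotlib 3.10.9.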

Additional observations from a re-analysis of the deposited data

Results flagged for a closer look

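Among 48 groups of 4 arrays, 1 for each probe of the set in each such group, Dixon's test singled out 2 lowest arrays, where chance gives about 1 in 20 groups. Brg1 deficient 3 measured 8.49 on the brightest probe of Slc12a2, with the other 3 arrays of its group between 10.19 and 10.50 (gap over range 0.843). Brg1 deficient 1 measured 5.26 for Prom1, with the others between 6.02 and 6.16 (0.841), all near background.

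The interaction of Brg1 loss and Apc loss passed for 2 probes. It was -1.72 for Lgr5 (SE 0.35, limma adjusted p = 0.03) and -1.80 for the second probe of Igfbp4 (SE 0.39, adjusted p = 0.0421), and the brighter Igfbp4 probe gave -1.27 (adjusted p = 0.51). Background bounds the change with Apc present for both: the control mean of Lgr5 was 0.24 above it, and the Brg1 deficient mean of the second Igfbp4 probe 0.05 above it. On single slides neither passed, with -1.93 (0.0731) and -1.17 (0.73) for Lgr5 and -1.49 (0.231) and -1.96 (0.521) for that Igfbp4 probe.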

How the results depend on the processing

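No result of the 16 probes reversed among called values. Leaving out 1 array at a time, the number of the 9 genes past the test ran from 3 to 3 in Brg1 deficient against control mice and from 6 to 7 in Apc deficient against control. It ran from 1 to 3 in Brg1-Apc deficient against control, from 4 to 5 against Apc deficient and from 3 to 4 against Brg1 deficient mice. It ran from 7 to 9 in Apc deficient against Brg1 deficient mice and from 0 to 2 in the interaction. The count of 9 includes Prom1, which was lower in Apc deficient mice, so not all 9 rose. With slide 1 alone the count was 1 in Brg1 deficient against control, 1 in Brg1-Apc deficient against control and 0 in the interaction. With slide 2 alone it was 2 in Apc deficient against control and 0 in Brg1-Apc deficient against control, in Brg1-Apc deficient against Apc deficient and in the interaction. Fewer arrays entered these fits. Without the 2 control arrays that held other tissue it was 1 in Brg1 deficient against control, 1 in Brg1-Apc deficient against control and 0 in the interaction. In Brg1-Apc deficient against control it was 4 with only probes above background and 4 with array weights, where the cause was not tested.

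With the replicate number as a block the counts were 3, 7, 2, 4, 3, 8 and 1, in the order of the ranges above, and with slide as a block 3, 7, 3, 4, 3, 8 and 1.

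Over all 16592 genes the number past the test, 550 in Brg1 deficient against control mice, ran from 41 (slide 2 alone) to 854 when settings changed. It was 2526 in Apc deficient against control, from 160 to 3399, and 177 in the interaction, from 0 to 548. It was 1168 in Brg1-Apc deficient against control, from 9 to 2128, and 1296 against Apc deficient mice, from 1 to 2101. It was 1074 against Brg1 deficient mice, from 226 to 1624, and 3474 in Apc deficient against Brg1 deficient mice, from 1178 to 3812. Quantile normalization changed the split from 136 higher and 414 lower genes to 214 and 218 in Brg1 deficient against control, and from 917 and 157 to 702 and 250 in Brg1-Apc deficient against Brg1 deficient mice. Of the 16 probes, 9 were above background on at least 8 arrays, 12 by the array median and 6 by the 99th percentile. Lgr5, Ascl2, Mex3a, Prom1 and Rgmb sit near background in control, which limits any fall that could be seen.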

Other observations

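The genes whose level over the 15 arrays was most like that of Lgr5, by the root mean square difference after centring each on its mean, were Wdhd1 (0.27), Ror2 (0.28), Efna4 (0.31), Melk (0.31) and Krr1 (0.33), of 9807 genes compared. The same measure for Lgr5 against a flat line was 0.78. Wdhd1 takes part in DNA replication, Ror2 is a receptor for Wnt5a, Efna4 is an ephrin ligand and Melk is a kinase of dividing cells. Ror2 averaged 7.83 in Apc deficient mice and 5.92, 5.50 and 5.61 in the control, Brg1 deficient and Brg1-Apc deficient groups. Outside the Apc deficient group, the means of Ror2 and Lgr5 lay within or below the background levels of 5.65 to 6.19. Their likeness there is partly that of background values. Genes entered when above background on at least 3 arrays, which the 3 Apc deficient arrays alone can supply.

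For Olfm4 the closest were Ifitm2 (0.99), Ifitm3 (1.03), Gbp3 (1.18), Top2a (1.19) and Rbbp7 (1.19), against 2.23 for a flat line. Ifitm2 and Ifitm3 encode membrane proteins that restrict viruses, and Gbp3 a guanylate binding protein induced by interferon. Ifitm3 averaged 14.27 in Apc deficient mice and 12, 9.96 and 10.90 in the control, Brg1 deficient and Brg1-Apc deficient groups. These rankings are descriptions over 15 arrays that share their groups, slides and cell mixture.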
